A study of Mus musculus with 2 samples.

Results

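Immediate early genes are genes whose transcription is switched on by a stimulus without the need for new protein. The 10 described here are Fos, Fosb, Jun, Junb, Atf3, Egr1, Klf4, Nr4a1, Ier2 and Btg2, chosen by name and followed across mouse glioma cells. All 10 were listed in both libraries, among 18366 gene symbols in all, of which 16859 were in both. The cells came from gliomas of C57BL/6 mice in which PDGFB, a ligand of platelet-derived growth factor receptors, had been transferred in utero into the ventricles of the embryonic telencephalon. Tumours were taken around 40 days after birth and dissociated, and their cells were enriched by sorting on GFP. There was 1 group and no control: cells of 2 tumours were mixed into each of 2 libraries, pool 1 and pool 2, and the mice within a pool cannot be told apart. The pools are the only replicates (n = 2).

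In textbook accounts, growth factor receptors act on these genes through the kinase ERK, which activates the partner proteins of serum response factor at CArG boxes, and through kinases that act on CREB at cyclic AMP response elements. Fos, Fosb, Jun and Junb encode subunits of the transcription factor AP-1, and Atf3 a related leucine zipper protein. Egr1 and Klf4 encode zinc finger transcription factors and Nr4a1 an orphan nuclear receptor. Ier2 encodes a small nuclear protein and Btg2 an antiproliferative co-regulator. In the nervous system the family is best known as a marker of recent stimulation, and it is also known to be induced while tissue is taken apart. All cells here went through dissociation and sorting, so RNA made in the tumour and RNA made afterwards cannot be told apart.

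Windows of 250 bases before RefSeq start sites (GRCm38.p6) were read for 8 of the 10 genes, all but Egr1 and Ier2. Shown are 6 of them: those of Fos, Fosb, Junb and Jun, which encode AP-1 subunits, and those of Nr4a1 and Btg2. Of the genes tested below, Nr4a1 and Btg2 followed the others least. The windows of Klf4 and Atf3 were read and are not shown. Capitals mark TGACG, the core of the cyclic AMP response element, or CGTCA, the same letters on the other strand. The windows are 5′ to 3′ on the gene's strand: Fos is chr12:85473640-85473889 (plus), Fosb chr7:19310046-19310295 (minus), Junb chr8:84978749-84978998 (minus), Jun chr4:95052223-95052472 (minus), Nr4a1 chr15:101266596-101266845 (plus) and Btg2 chr1:134079156-134079405 (minus).
Fos: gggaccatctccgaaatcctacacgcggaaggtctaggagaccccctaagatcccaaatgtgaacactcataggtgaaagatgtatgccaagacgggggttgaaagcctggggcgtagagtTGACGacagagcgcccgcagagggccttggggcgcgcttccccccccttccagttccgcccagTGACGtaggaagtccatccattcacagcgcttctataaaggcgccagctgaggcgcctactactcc
Fosb: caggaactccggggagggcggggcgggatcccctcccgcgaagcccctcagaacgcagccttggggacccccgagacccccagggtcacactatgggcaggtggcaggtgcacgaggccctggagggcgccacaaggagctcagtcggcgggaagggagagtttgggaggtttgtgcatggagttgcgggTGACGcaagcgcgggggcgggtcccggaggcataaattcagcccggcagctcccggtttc
Junb: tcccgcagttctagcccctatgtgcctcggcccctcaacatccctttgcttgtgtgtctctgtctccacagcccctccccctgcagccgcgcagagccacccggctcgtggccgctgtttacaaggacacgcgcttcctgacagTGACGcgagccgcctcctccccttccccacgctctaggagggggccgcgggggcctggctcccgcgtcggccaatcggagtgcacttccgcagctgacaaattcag
Jun: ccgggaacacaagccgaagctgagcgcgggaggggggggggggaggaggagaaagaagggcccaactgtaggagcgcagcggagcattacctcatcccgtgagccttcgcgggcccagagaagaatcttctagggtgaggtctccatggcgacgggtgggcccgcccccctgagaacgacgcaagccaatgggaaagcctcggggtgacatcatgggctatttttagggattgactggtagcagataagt
Nr4a1: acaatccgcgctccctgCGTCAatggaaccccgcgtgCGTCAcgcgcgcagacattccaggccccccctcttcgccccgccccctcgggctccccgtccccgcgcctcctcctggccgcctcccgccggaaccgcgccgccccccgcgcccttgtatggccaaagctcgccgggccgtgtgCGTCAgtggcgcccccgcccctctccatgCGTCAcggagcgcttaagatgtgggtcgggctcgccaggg
Btg2: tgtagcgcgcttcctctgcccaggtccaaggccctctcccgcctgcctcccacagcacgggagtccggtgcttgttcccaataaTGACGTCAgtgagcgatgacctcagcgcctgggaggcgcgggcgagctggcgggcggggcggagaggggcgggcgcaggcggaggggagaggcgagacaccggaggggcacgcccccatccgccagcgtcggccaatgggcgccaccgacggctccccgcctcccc
TGACG was found on either strand in 7 of the 8 windows, against 17.8% of 32851 RefSeq promoters of the same length, and Jun was the gene without it. Nr4a1 held 4 copies, and the nearest lay 40 to 36 bases before the start. Btg2 held the full palindrome TGACGTCA, in which 2 overlapping TGACG matches are counted; 1.55% of all promoters held that palindrome. Fos held TATAAA, as did 12.4% of all promoters. CArG boxes (by name, 10 letters) and the AP-1 motif TGANTCA were in 0 of the 8 windows, against 1.47% and 6.75% of all promoters. Bases further upstream were not searched, and no window of Egr1 or Ier2 was read. These counts therefore do not show that the 10 genes lack such sites. A match describes these letters only and was not tested as a binding site.

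Expression was counted as unique molecular identifiers (UMIs), 1 tag for each captured RNA molecule at its 3ʹ end, so levels were not divided by gene length. Kept were the barcodes in which 500 genes or more were found and mitochondrial UMIs made up 15% or less: 3506 in pool 1 with a median of 7440 UMIs, and 3278 in pool 2 with a median of 11272. Kept cells held 33429361 UMIs in pool 1 and 40475642 in pool 2, and 4 barcodes occurred in both pools. The median mitochondrial share was 2.97% in pool 1 and 1.44% in pool 2. Markers of oligodendrocyte precursors were found in all large clusters: Olig2, a transcription factor of that lineage, had 366 to 780 CPM (UMIs scaled to a library total of 1e6) over both pools in the 10 clusters tested. Intervals are 95%, exact, and cover counting error only.

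The 10 genes spanned a wide range of levels, with Jun, Egr1 and Fos far above the others. Jun had 373 CPM in pool 1 (366 to 379) and 458 in pool 2 (451 to 464), a mean of 415 ± 60.1 (SD, n = 2). Egr1 had 268 and 352 CPM (mean 310.2 ± 59.6) and Fos 207 and 241 CPM (mean 224 ± 23.7). These neighbours in rank lay close: the lower Jun pool was above the higher Egr1 pool by little, and both Fos pools were below both Egr1 pools.

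A middle set followed. Ier2 had 57.4 CPM in pool 1 and 79.5 in pool 2, Nr4a1 44.7 and 76.8, and Junb 50.02 and 56.7. Fosb had 34.4 and 39.2 CPM and Btg2 18.6 and 25.4. Nr4a1 overlapped with both Ier2 and Junb, so its place in the order was not set, and both Junb pools lay just below both Ier2 pools. Both Fosb pools lay below all of theirs, and both Btg2 pools below Fosb. Klf4 (5.95 and 7.31 CPM) and Atf3 (1.59 and 3.43 CPM) were the scarcest. Summed, the 10 genes made up 1060 CPM in pool 1 (1049 to 1071) and 1339 CPM in pool 2 (1328 to 1350).

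**Figure D1:**
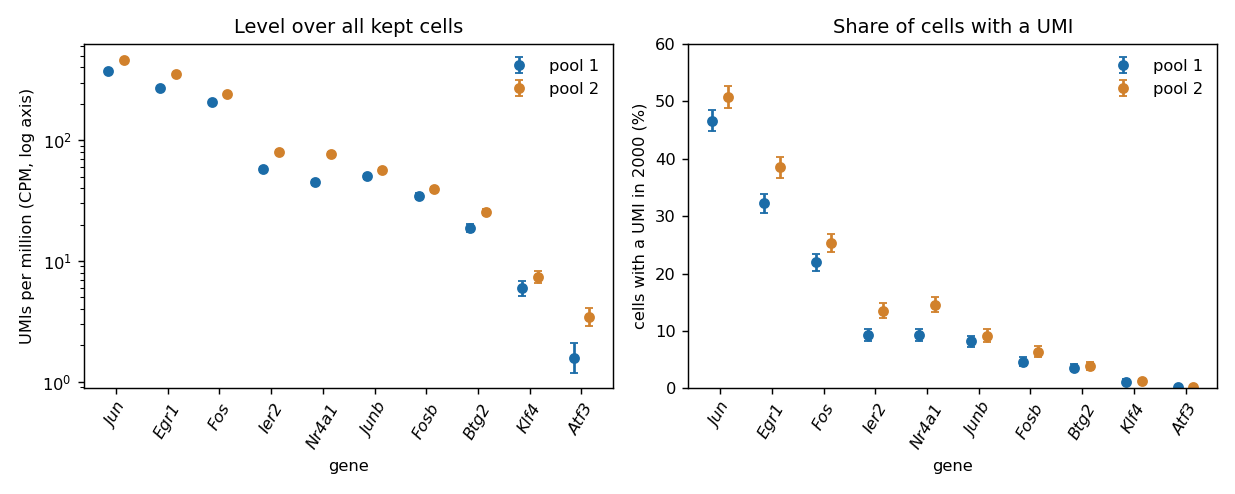
Left, CPM over all kept cells for each of the 10 genes on a log axis; right, the percentage of cells with at least 1 UMI of the gene after thinning to 2000 UMIs per cell. Points are pools and bars are exact 95% intervals for counting error; Jun, Egr1 and Fos lead on both axes, and all 10 genes had the higher CPM in pool 2.

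Each of the 10 genes was higher in pool 2 than in pool 1, by a median log2 ratio of 0.35, while 44.6% of the 12283 genes of at least 2 CPM were higher in pool 2 and their median log2 ratio was −0.03. The ratio was smallest for Junb (56.7 CPM in pool 2 and 50.02 in pool 1, log2 0.18). Nr4a1 had a log2 ratio of 0.78 and Atf3 one of 1.12. With 1 library on each side this difference has no test, and the pools also differed in depth and in mitochondrial share. The names of the libraries also differ in a day label, so pool and day cannot be told apart. The genes of the pathway are known to move together, so 10 of 10 is not 10 separate observations.

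At an equal depth of 2000 UMIs per cell most cells held at least 1 of the 10 transcripts, and few held many. Thinning left 3117 cells in pool 1 and 2874 in pool 2, and dropped 389 and 404 as too shallow. At least 1 gene was detected in 75.1% (73.6 to 76.6%) of cells in pool 1 and 81.0% (79.6 to 82.5%) in pool 2. At least 3 were detected in 14.95% and 21.8%, and at least 5 in 1.70% and 2.85%. The median cell held 1. No cell held 9 or 10 of them, which allows a share of up to 0.118% in pool 1 and 0.128% in pool 2. Before thinning, at least 1 gene was found in 91.4% of kept cells in pool 1, so these shares depend on depth.

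The shares for single genes largely followed the order of their levels. A Jun UMI was found in 46.6% of thinned cells in pool 1 and 50.8% in pool 2, Egr1 in 32.2% and 38.5%, and Fos in 21.9% and 25.3%. Nr4a1 was in 9.27% and 14.5%, Ier2 in 9.21% and 13.5%, Junb in 8.18% and 9.19%, and Fosb in 4.62% and 6.40%. Nr4a1 was thus at or above Ier2 and above Junb in both pools, although its CPM was below that of Ier2 in both and below that of Junb in pool 1. Btg2 was in 3.59% and 3.90%, Klf4 in 1.15% and 1.22%, and Atf3 in 0.192% and 0.209%. A share of cells with a UMI is not a share of expressing cells, since free RNA also gives UMIs.

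How unevenly a transcript was spread over cells set Fos apart from Nr4a1. The ratio of variance to mean at equal depth was 2.94 in pool 1 and 2.82 in pool 2 for Fos, 2.14 and 2.01 for Egr1, and 1.84 and 1.91 for Jun. The median gene found in at least 5% of cells had 1.06 in both pools, and the 90th percentile was 1.21 and 1.22. Nr4a1 stood at 1.03 in both pools, just under the median gene. Fosb had 2.06 and 1.55, Btg2 1.52 and 2.39, Junb 1.31 and 1.83, Klf4 1.64 and 1.37, and Ier2 1.14 and 1.25. Atf3 had 1.28 in pool 1 and 6.20 in pool 2, above Fos there, with a UMI in 6 thinned cells of each pool. The genes were not matched for level in these ratios. The 10% of cells with most Fos UMIs held 67.7% of them in pool 1 and 65.0% in pool 2. The highest single cell had 121 Fos UMIs in pool 1 and 198 in pool 2, before thinning.

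The genes tended to be found in the same cells, with Fos at the centre. Over the 45 pairs, the Pearson correlation of log2(UMI + 1) across thinned cells had a median of 0.0595 in pool 1 and 0.0725 in pool 2, and 40 pairs were positive in both. Fos and Fosb had r = 0.26 in pool 1 and 0.22 in pool 2, Fos and Junb 0.22 and 0.21, Fos and Jun 0.21 and 0.19, and Fos and Egr1 0.17 and 0.21. Sparse counts hold such values down, and the cells of a pool share 1 library, so these are descriptions of 3117 and 2874 cells. Thinning equalised depth among them.

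The same can be read as shares of cells. A Fos UMI was found in 58.3% of the 144 pool 1 cells with a Fosb UMI, against 20.2% of the cells without one. In pool 2 it was found in 49.5% of 184 cells with Fosb and in 23.6% of those without. For Nr4a1 the split was slight: 11.1% of pool 1 cells with Fos and 8.75% of those without held it, and 15.7% and 14.1% in pool 2.

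**Figure D2:**
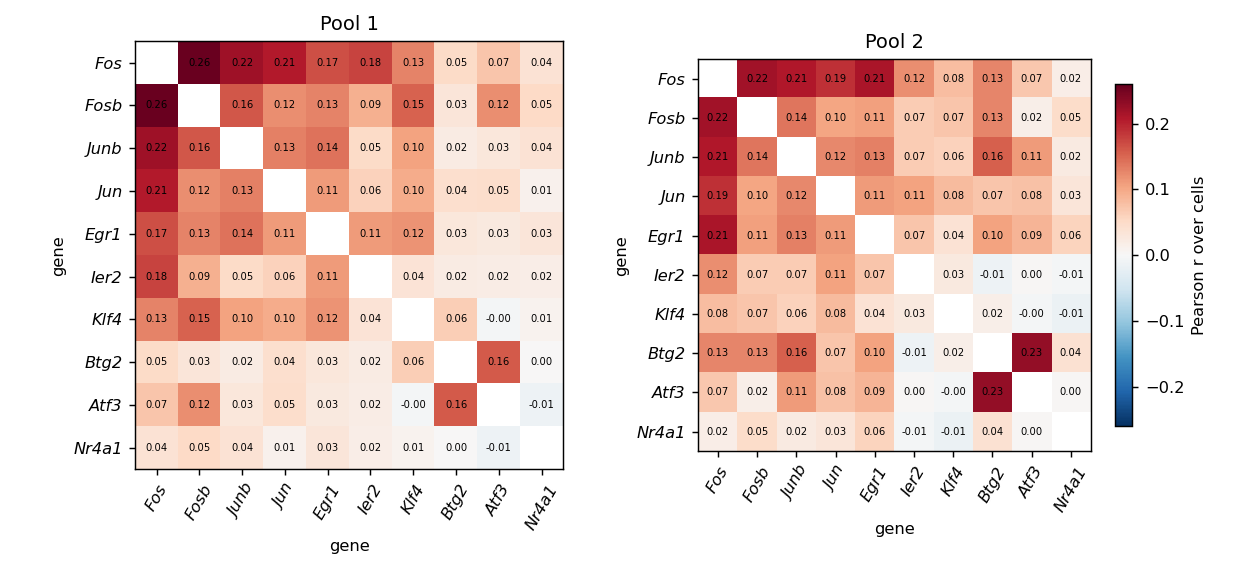
Pearson correlation of log2(UMI + 1) over cells thinned to 2000 UMIs, for each pair of the 10 genes, in pool 1 (left) and pool 2 (right). All pairs among Fos, Fosb, Junb, Jun and Egr1 are red in both pools (Fos with Fosb 0.26 and 0.22). Some pairs outside this block are as red or redder. Atf3 with Btg2 has 0.16 and 0.23 (within clusters 0.13 and −0.0088), the highest value in pool 2. The Nr4a1 row is near 0.

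Each gene was also compared with the 6186 or 6187 other genes found in at least 5% of thinned cells of each pool, which leaves out Fosb, Klf4, Atf3 and Btg2 as partners. Among them Fos was the most alike for Fosb, Jun, Junb, Egr1, Ier2 and Klf4. Junb was the most alike for Fos, with a mean r over the pools of 0.21, where the 99th percentile over all genes was 0.053. Jund, the third Jun family gene, was second for Jun (0.12 in pool 1 and 0.14 in pool 2). Nr4a1 had none of the other 9 among its 3 most alike genes, which were Itgav, Hip1 and Sema3d, at mean r of at most 0.057. Btg2 was most like Klf6 (mean r 0.0897), with Fos and Junb next. Atf3 was most like Serinc3, Lgmn and Cst3, but its r with Serinc3 was 0.047 in pool 1 and 0.189 in pool 2. Some of the partners left out lay closer. Fos with Fosb had a mean r of 0.24, above Fos with Junb, and Klf4 with Fosb had 0.11, against 0.10 for Klf4 with Fos. Atf3 with Btg2 had 0.19, above the most alike gene listed for either. That last pair had r = 0.16 in pool 1 and 0.23 in pool 2, but 0.13 and −0.0088 within clusters.

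Atf3 rested on very few cells. Of its 139 UMIs in pool 2, 105 (75.5%) came from the 19 cells of a cluster with microglia or macrophage markers, and 57 of these from 1 cell. In pool 1 that cluster held 12 of 53 Atf3 UMIs (22.6%) in 47 cells. Outside it Atf3 lay at 1.25 CPM in pool 1 and 0.845 CPM in pool 2. The Atf3 pool ratio above is therefore reversed without this cluster, an alternative added after the data were seen.

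The microglia-like cells also had more Btg2, Junb, Jun, Egr1, Klf4 and Fos than the other cells in both pools, and the gap in Btg2, Junb, Jun and Fos was wider in pool 2. Btg2 had 79.2 CPM in these cells in pool 1, against 17.6 CPM over all others there, and 570 CPM against 22.4 CPM in pool 2. Junb had 75.5 against 49.6 CPM in pool 1 and 520 against 54.2 CPM in pool 2, and Jun 436 against 372 and 1159 against 454. Egr1 had 512 against 264 CPM in pool 1 and 717 against 350.3 CPM in pool 2. Klf4 had 31.3 against 5.53 CPM and 18.4 against 7.25 CPM, the wider gap being in pool 1, and Fos 227 against 207 and 612 against 239 CPM. Klf4 in these cells of pool 2 rested on 4 UMIs (5.01 to 47.1 CPM), so its excess there was within counting error. Leaving out the highest cell kept pool 2 Btg2 at 474 CPM and Junb at 449 CPM. It lowered pool 2 Egr1 to 420 CPM and Klf4 to 10.04 CPM, nearer the other cells. In pool 1 the same step put Fos at 167 CPM and Jun at 337 CPM, below the 207 and 372 CPM of the other cells. The higher pool 1 levels of Fos and Jun thus rested on 1 cell. Summed, the 10 genes had 1532 CPM there in pool 1 and 4262 CPM in pool 2. The cluster was not alike in the pools: its 12 microglia markers summed to 4113 CPM in pool 1 and 22007 CPM in pool 2, and its 10 precursor markers to 11829 and 5361 CPM. The pool 1 cluster thus held more glial RNA, and with 19 cells in pool 2 no test was made. Ier2 and Nr4a1 were not raised there in pool 2 (69.0 against 79.6 CPM and 46.0 against 77.0 CPM).

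To ask whether 1 gene follows the rest in a test, each was compared between cells high and cells low for the other 9. Counts were split at random: one part grouped the cells, within each pool and cluster and at 2000 UMIs, and the other part was tested. High cells were at or above the 75th percentile of how many of the other 9 were detected, and low cells at or below the 25th. Tied counts can put more than 25% of the cells in a group. Of 8 genes with enough counts, 8 were higher in the high cells (edgeR quasi-likelihood F test with pool and cluster as block, Benjamini-Hochberg over all genes). Each fit used 32 sums over 8 clusters of the same 2 pools, so SE and p-values do not extend to other tumours. In the same 8 fits 0.320% to 0.452% of all genes tested were called higher: 0.369% with Fosb left out, 0.320% with Fos, 0.385% with Junb, 0.401% with Egr1, 0.397% with Jun, 0.322% with Ier2, 0.377% with Btg2 and 0.452% with Nr4a1.

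Among the AP-1 genes, Fosb differed most. It had 57.7 CPM in high cells and 12.9 in low cells of pool 1, and 56.2 and 19.9 CPM in those of pool 2 (log2 difference 1.72 ± 0.13 SE, adjusted p = 4.59e-17). Fos had 342 CPM in high cells and 128 in low cells of pool 1, and 375 and 144 CPM in those of pool 2 (1.41 ± 0.06, adjusted p = 6.70e-37). Junb, whose product can replace Jun in AP-1, had 78.9 against 27.0 CPM and 79.0 against 32.2 CPM (1.38 ± 0.09, adjusted p = 3.24e-22). For each of these 3 genes the high cells were above the low cells within each pool. Jun had 472 against 276 CPM and 574 against 345 CPM (0.79 ± 0.05, adjusted p = 2.12e-26).

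Egr1 had 356 CPM in high cells and 194 in low cells of pool 1, and 488 and 288 CPM in those of pool 2 (0.85 ± 0.05, adjusted p = 7.98e-24). Ier2 had 74.7 against 47.0 CPM and 106 against 63.5 CPM (0.75 ± 0.07, adjusted p = 1.21e-11). Both pools thus showed the difference for these genes at about the same size.

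Btg2 and Nr4a1 followed the others least. Btg2 had 19.4 against 14.6 CPM in pool 1 and 27.2 against 17.9 CPM in pool 2 (0.52 ± 0.13, adjusted p = 0.0347), and DESeq2 gave no call for it (adjusted p = 0.255). Nr4a1 had 43.2 CPM in high cells and 38.0 in low cells of pool 1, within counting error, and 87.9 against 66.2 CPM in pool 2 (0.35 ± 0.08, adjusted p = 0.00709). In pool 1 alone its log2 difference was 0.083, so that call rests on pool 2. Klf4 and Atf3 were too scarce for the filter. Without it Klf4 was called (9.60 against 2.83 CPM in pool 1, 12.8 against 3.83 CPM in pool 2, 1.71 ± 0.23, adjusted p = 4.99e-10) and Atf3 was not (adjusted p = 0.999).

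**Figure D3:**
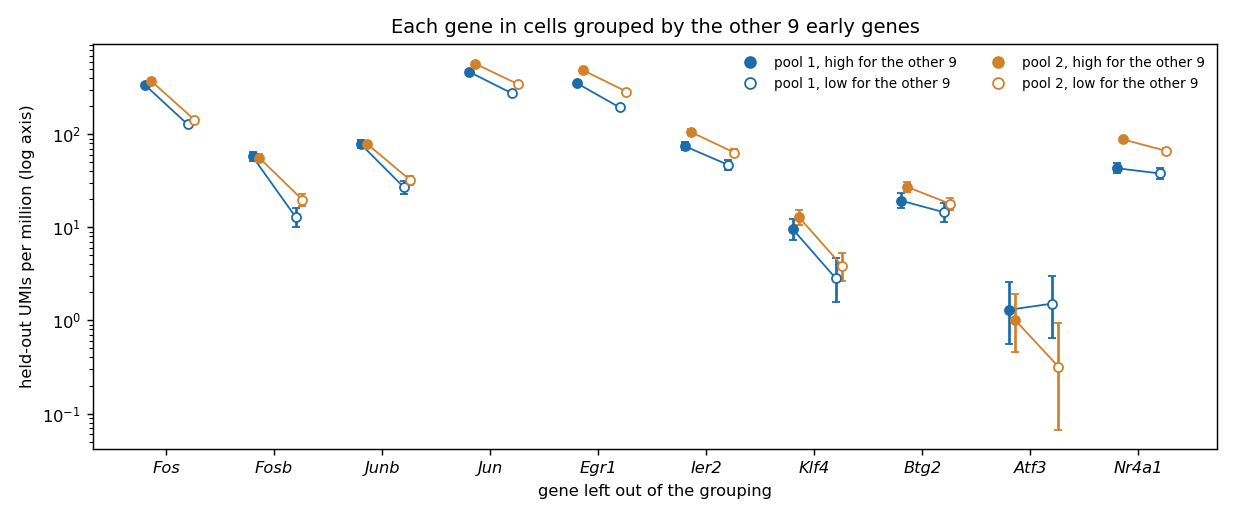
Held-out level of each gene (CPM, log axis) in cells high (filled, left) and low (open, right) for the other 9 genes, joined within pool 1 and pool 2; bars are exact 95% intervals for counting error. Among the genes that fall in both pools, Fosb, Klf4, Junb and Fos fall most steeply. In pool 1 Fosb goes from 57.7 to 12.9 CPM and Klf4 from 9.60 to 2.83 CPM, and the Nr4a1 lines are nearly flat.

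The next comparison asked which other genes differed between early-gene-high and early-gene-low cells, grouped by all 10; the 10 themselves were left out of the calls. There were 918 high and 796 low cells in pool 1, and 1076 and 1234 in pool 2, in 8 clusters. High cells had 2 to 7 of the 10 detected and low cells 0 or 1. The median low cell had 0 in pool 1 and 1 in pool 2, and the median high cell 2 in both. Median depth was 11414 UMIs in high and 11872 in low cells of pool 1, and 13980 and 13446.5 in those of pool 2; mitochondrial shares were 2.60% and 2.59%, and 1.16% and 1.19%. Of 8626 genes, 31 were higher (0.359%) and 6 lower (0.0696%). Microglia markers summed to 28.3 CPM in high and 31.8 in low cells of pool 1, and to 18.3 and 19.9 in those of pool 2. Erythroid markers summed to 136 CPM in high and 0.32 CPM in low cells of pool 2, where 1 cell carried 2403 of the 2412 erythroid marker UMIs of the whole pool; they were at 0 in both states of pool 1. Their part in the calls was not tested.

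Of 48 further early response genes listed, 25 had enough counts, and 10 of these were higher and 0 lower in high cells, with a median log2 difference of 0.21 against 0.00 over all genes tested. Socs3, a feedback inhibitor of cytokine receptors, had 48.9 CPM in high and 17.4 in low cells of pool 1, and 23.0 and 9.16 CPM in those of pool 2 (1.38 ± 0.14, adjusted p = 6.75e-11). Egr3, a relative of Egr1, had 31.7 against 18.4 CPM and 54.4 against 30.5 CPM (0.84 ± 0.10, adjusted p = 2.64e-08). High cells were above low cells within each pool for both. Ier5l had 64.8 against 39.6 CPM and 61.1 against 43.9 CPM (0.61 ± 0.08, adjusted p = 5.86e-07), and Jund 204 against 150 and 288 against 239 CPM (0.34 ± 0.05, adjusted p = 1.21e-05). Gadd45g, Ccn1, Klf10, Bhlhe40, Ier3 and Klf6 were the other 6, at log2 differences of 0.44 to 0.81.

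Of 12 tested genes from a list of 14 that report on ERK signalling, 5 were higher and 0 lower, with a median log2 difference of 0.11 (3 higher with DESeq2). Phlda1, a target of this pathway, had 475 CPM in high and 350 in low cells of pool 1, and 481 and 369 CPM in those of pool 2 (0.46 ± 0.05, adjusted p = 6.75e-11). Spry2, an inhibitor of receptor signalling, differed by 0.31 ± 0.06 (adjusted p = 0.000292), Dusp6, an ERK phosphatase, by 0.26 ± 0.06 (adjusted p = 0.00632) and Ccnd1, cyclin D1, by 0.17 ± 0.03 (adjusted p = 0.000515). Spry4 was the fifth, at 0.21. In both pools all 5 lay above 0.

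Genes of the machinery upstream were not called. Of 18 tested kinases and transcription factors, 0 passed with edgeR and 0 with DESeq2, and 2 were higher at an unadjusted p under 0.05: Crem, a CREB family gene (0.49 ± 0.14, adjusted p = 0.123), and Mapk10, a JNK kinase gene (0.14 ± 0.07, adjusted p = 0.562). Among 10 heat shock genes, Hspa1a alone was higher. It had 24.3 CPM in high and 7.01 in low cells of pool 1, and 54.0 and 20.02 CPM in those of pool 2 (1.43 ± 0.18, adjusted p = 1.02e-07), but DESeq2 gave an adjusted p of 0.362. Its reads may be shared with the near-identical Hspa1b, which was not tested, so the level is uncertain. The median over the 10 was 0.02.

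Outside the lists, Pou3f1, a POU domain transcription factor, had 421 CPM in high and 334 in low cells of pool 1, and 470 and 391 CPM in those of pool 2 (0.32 ± 0.05, adjusted p = 1.13e-05). Adamts1, a secreted protease gene, differed by 0.50 ± 0.08 and Sbno2 by 0.60 ± 0.10. With the state called without Jun and Fos these 2 had 0.18 (adjusted p = 0.643) and 0.17 (adjusted p = 0.804) and were not called. Id2, an inhibitor of basic helix-loop-helix factors, differed by 0.27 ± 0.05, Midn by 0.25 ± 0.05 and Rasl11a by 0.25 ± 0.05. Neat1 (0.58), Iffo2 (0.50), Cebpd (0.41) and Erf (0.30), which encodes an ERK-regulated repressor, were also higher, but none of the 4 was called with DESeq2. The genes lower in high cells that lay on 1 side in both pools were Amer1, Gjc3, Dgkb and Hmgn5 (log2 −0.54 to −0.24). DESeq2 called 0 of the 6 lower genes, and Dut and Pcna had opposite signs in pool 2. Without the pool and cluster block, 0 of the 37 genes passed; calling the state without Jun and Fos left 17 of the 37.

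**Figure D4:**
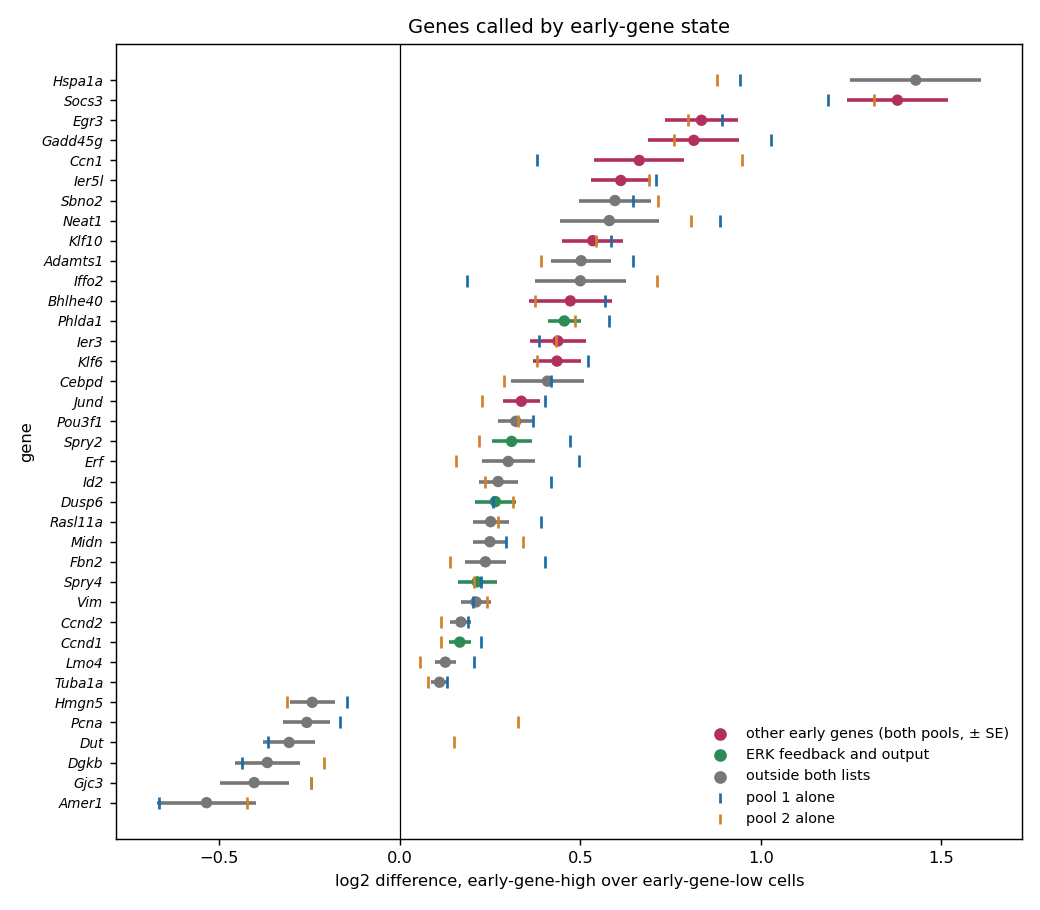
Log2 difference of the 37 called genes between early-gene-high and early-gene-low cells (dots, with SE bars, from the fit over both pools), with ticks for each pool alone. Hspa1a (1.43) and Socs3 (1.38) lead the list, and 31 of 37 genes lie to the right of 0; Dut and Pcna have a pool 2 tick on the other side.

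Levels also differed between clusters, mostly of Egr1 and Ier2. Cells were clustered on the grouping part of the counts without the 10 genes, and each of 10 clusters was compared with the mean of the other 9 on the held-out part. Of 90 tests (9 genes, Atf3 being too scarce), 10 were called (11.1%), against 20.2% of 112780 gene and cluster tests in all. The share for the early genes was therefore not above that of other genes. Jun, Junb, Nr4a1 and Klf4 were called in none of the 10 clusters, with log2 differences of −0.28 to 0.21 for Jun and −0.25 to 0.32 for Nr4a1.

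The widest differences were in cluster 4, which resembled committed oligodendrocyte precursors, cells that have begun to differentiate (63 cells in pool 1 and 36 in pool 2). Egr1 had 51.0 CPM there in pool 1, against 172 to 378 CPM in the other 9 clusters, and 177 CPM in pool 2, against 273 to 425 CPM (−1.46 ± 0.21, adjusted p = 2.17e-06). Ier2 had 15.1 CPM, against 38.1 to 111 CPM, and 31.9 CPM, against 56.7 to 112 CPM (−1.40 ± 0.33, adjusted p = 0.00187). In both pools cluster 4 was lowest for both genes, on 44 and 100 Egr1 UMIs and 13 and 18 Ier2 UMIs. Across all genes 9.90% were lower there and 12.4% higher.

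The AP-1 genes of cluster 4 did not show this in both pools. Fos had 95.04 CPM in pool 1 and 284 CPM in pool 2, and Jun 154 and 552 CPM. Summed, the 10 genes had 407 CPM in pool 1, the lowest of the 10 clusters, and 1244 CPM in pool 2. Whether Egr1 differed from Fos in its change was not tested. Of 40 other early genes, 10 were lower and 2 higher in cluster 4 (median −0.62), with Trib1 (−2.53 ± 0.34, adjusted p = 4.68e-07), Zfp36l2 and Plk2 lower and Sgk1, a kinase gene, higher (2.67 ± 0.19, adjusted p = 2.58e-13). Of 22 kinase and transcription factor genes of the pathway, 2 were higher and 2 lower there, with a median of −0.16. Mapk3, which encodes ERK1, had 96.2 CPM in pool 1, against 6.14 to 28.2 CPM, and 121 CPM in pool 2, against 13.03 to 29.96 CPM (2.503 ± 0.231, adjusted p = 1.99e-10). Mapk9, a JNK kinase gene, was also higher (1.24 ± 0.24), and Mapk10 (−1.53 ± 0.35) and Elk3, a partner of serum response factor (−1.98 ± 0.42), were lower. Of the 13 tested genes that report on ERK signalling, 11 were lower and 1 higher in cluster 4, with a median of −2.37; Ccnd1 had −2.45 ± 0.13 and Spry4 −2.58 ± 0.24.

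Smaller differences were found in 4 other clusters. In cluster 1, led by Sox9 and Vim, Egr1 was higher (347 CPM in pool 1 and 368 in pool 2; 0.48 ± 0.12, adjusted p = 0.00438), as was Ier2 (73.1 and 112 CPM; 0.58 ± 0.13, adjusted p = 0.00298); 10.1% of all genes were higher there. In cluster 6, led by Vgf and Hmga2, Egr1 was higher (322 and 425 CPM; 0.47 ± 0.11, adjusted p = 0.00369), as were 7.26% of all genes. These 3 calls are lost when the pool is not a block. In cluster 2, among whose leading genes are Aldoc and Meox1, Fosb was lower (21.2 and 18.3 CPM, against medians of 38.3 and 44.4 CPM over the others; −0.90 ± 0.23, adjusted p = 0.00389), as were 7.96% of all genes. Btg2 was also lower there (−0.67 ± 0.22, adjusted p = 0.0288), with log2 differences of −0.075 in pool 1 and −1.10 in pool 2, and DESeq2 gave no call (adjusted p = 0.0791).

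Cluster 5 was shallow, at medians of 3082 UMIs in pool 1 and 2522 in pool 2 and mitochondrial shares of 4.86% and 4.402%. Fos was lower there (148 and 149 CPM; −0.76 ± 0.18, adjusted p = 0.000793), as was Ier2 (38.1 and 56.7 CPM; −0.74 ± 0.17, adjusted p = 0.000508), where 28.3% of all genes were lower. Egr1 was called higher (378 and 369 CPM; 0.34 ± 0.12, adjusted p = 0.0169), where 29.1% were higher. The pools differed in sign for Egr1, at 0.58 in pool 1 and −0.063 in pool 2, and the call was lost at a mitochondrial limit of 5% (adjusted p = 0.115). Malat1, a nuclear noncoding RNA, made up 107045 CPM of cluster 5 in pool 1, against 24162 to 48333 CPM in the other 9 clusters, and 120802 CPM in pool 2, against 25526 to 57858 CPM. Tsix, Miat and Kcnq1ot1, further noncoding RNAs, were among its leading genes. The part of depth, mitochondrial share and this RNA content in these calls was not tested.

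**Figure D5:**
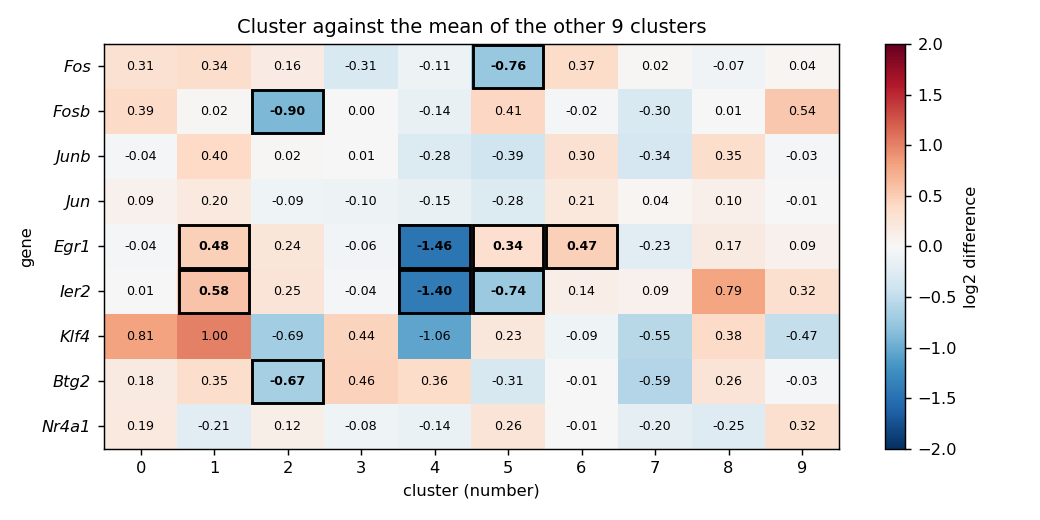
Log2 difference of 9 genes (rows) in each of 10 clusters (columns) against the mean of the other 9 clusters, from held-out counts; boxes mark the 10 tests with adjusted p under 0.05. Egr1 and Ier2 in cluster 4 are the darkest boxed cells, and the Jun and Nr4a1 rows hold no box.

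Dividing cells were then set against the rest of the same clusters. Cycling cells (165 in pool 1 and 121 in pool 2, with UMIs of at least 2 of 10 core cell cycle genes) were compared with non-cycling cells (1203 and 1509) in 5 clusters. Clusters 3 and 9, made up mostly of cycling cells, had under 5 non-cycling cells in a pool and were left out; they held 166 and 102 cycling cells in pool 1, and 128 and 100 in pool 2. Most dividing cells were therefore outside this comparison. Of the cycling cells compared, 94 in pool 1 and 75 in pool 2 were in cluster 7, led by Hells and Mcm3. Of the 7 early genes tested, 0 were called with edgeR and 0 with DESeq2, where 0.836% of 7534 genes were higher and 0.279% lower; 3 were lower at an unadjusted p under 0.05. Fos came nearest (log2 −0.42 ± 0.12, adjusted p = 0.0726), at −0.23 in pool 1 and −1.30 in pool 2. It passed in 3 alternatives: without the cells of highest doublet scores (−0.57, adjusted p = 0.00627), without the low-count filter (−0.52) and with all counts (−0.41, adjusted p = 0.0441). Ier2 had −0.45 ± 0.18 (adjusted p = 0.358) and Egr1 −0.24 ± 0.11 (adjusted p = 0.438), the pools differing in sign for Egr1. Jun (−0.09 ± 0.09) and Nr4a1 (0.15 ± 0.19) were not called either. Klf4, Atf3 and Btg2 were too scarce.

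Levels were also read over the range of mitochondrial share, a sign of RNA quality. Summed, the 10 genes had 1076 CPM in pool 1 cells under 2.5% mitochondrial UMIs, 1035 CPM from 2.5 to 5%, 1030 CPM from 5 to 10% and 1258 CPM from 10 to 15%. In pool 2 the values were 1358, 1277, 1163 and 1573 CPM. The highest bin was thus the highest in both pools, with 227 and 131 cells. Its cells were also shallow, at medians of 3480 and 2886 UMIs, against 9757 and 12698 in the lowest bin. By depth, the shallowest quartile of cells had 1244 CPM in pool 1 and 1257 CPM in pool 2. The deepest quartile had 1007 and 1368 CPM, so the pools differed in direction. The part of depth in the bins was not tested. Egr1 had 443 and 463 CPM in that bin, against 266 and 351 CPM in the lowest, while Fos had 171 and 263 CPM, against 218 and 243 CPM. These are descriptions with no test.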

How the data were processed

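Single-cell libraries of 2 pools were read from tables of raw UMI counts deposited by the authors, with no normalization. The submitters' processing notes name Cell Ranger 6.0.2 and the builds GRCm38 and mm10; libraries used the 10x 3ʹ chemistry, per the labels' protocols. Levels are summed counts scaled to 1e6 UMIs (CPM) with exact Poisson intervals, and shares have exact Clopper-Pearson intervals. Scrublet marked 1 and 4 doublets, far below the 2.80% and 2.62% expected, so doublets were not removed; in an alternative the 98 and 86 cells of highest score were.

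Counts were split at random (probability 0.5). Clusters (Leiden, resolution 0.8, 1000 variable genes, 30 components, 15 neighbours; scanpy 1.11.5) and states were set on the training part, without the early genes, the other lists, or mitochondrial, ribosomal, sex-linked and core cycling genes in the clustering. Held-out counts were summed per pool, cluster and state and tested with edgeR 4.0.16 (TMM, filterByExpr, quasi-likelihood F test; threshold 0.05), with the pool, or pool and cluster, as block, since both sides come from the same tumours. The cluster fit had 20 libraries and 9 residual degrees of freedom (11278 genes tested), the cycling fit 20 and 9 (7534) and the early-gene-state fit 32 and 15 (8626). Clusters needed 20 cells in each pool. Sums of a pool share tumours, so p-values do not extend to other tumours. DESeq2 1.42.0 was an alternative. Fits were tested on simulated data.

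The 10 genes and the lists were chosen with earlier results of these data known. Genes named by state outside the lists were the up to 10 largest changes each way among calls of at least 20 CPM with 1 direction in both pools, and in lists the 4 of smallest p; further called list genes were named after their values were seen. Tests of each gene by the state of the other 9 were added after seeing the data.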

Additional observations from a re-analysis of the deposited data

Results flagged for a closer look

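Barcodes left out of all comparisons also held the early genes. In all, 178 barcodes of pool 1 and 157 of pool 2 had more than 15% mitochondrial UMIs, and those described here had 500 genes or more and were removed for that share alone. In pool 1, 139 such barcodes had 1216 CPM for the 10 genes summed (1102 to 1338), and in pool 2, 102 barcodes had 1098 CPM (974 to 1233). These levels rest on 420 and 286 UMIs of the 10 genes. The kept cells had 1060 and 1339 CPM, so the removed barcodes were above them in pool 1 and below them in pool 2.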

How the results depend on the processing

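Calls of early genes between clusters numbered 10, and 22 without the low-count filter, 5 without the pool as block, and 8 to 13 under the other alternatives run; 9 and 10 of the 10 kept their sign in pool 2 and pool 1 alone. The analysis of glial clusters alone equalled the main one, since no other cluster had been tested. By cycling state 0 genes passed, against 2 without the filter, 2 with all counts and 1 without the highest doublet scores. The 37 genes called by early-gene state became 22 with DESeq2, 94 without the filter, 60 with all counts (which test the counts that set the state), 58 with the state from 1000 UMIs and 0 without the replicate block; 35 and 37 kept their sign in pool 2 and pool 1 alone. The 10 other early genes became 16 without the filter and 0 without the block (10 and 10 in each pool alone). The 8 genes called by the state of the other 9 became 5 without the block (8 and 8). A fit without the block leaves differences between pools and clusters in the residual spread. The median over pairs of the correlation averaged over the pools was 0.0768, and 0.0449 at 1000 UMIs, 0.111 at 4000 UMIs and 0.0584 within clusters (0.0595 to 0.0725 in single pools). The share of cells with an early gene averaged 78.1%, and was 92.7% unthinned, 58.6% at 1000 and 91.4% at 4000 UMIs (75.1% to 81.0% in single pools). The summed level averaged 1200 CPM and stayed within 1188 to 1212 CPM under the other cell filters (1060 to 1339 in single pools). Signs reversed in a single pool for Egr1 in cluster 5 (−0.063 to 0.58) and Egr1 by cycling state (−0.83 to 0.026). Of 387 values of single genes, 298 kept their side of the threshold, 85 lost it (31 without the block) and 4 gained it.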
